A study of Mus musculus with 4 samples.

Results

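The genes described here are the 9 listed members of a programme known from macrophages and named for Trem2, Spp1 and Gpnmb: Trem2, Tyrobp, Gpnmb, Spp1, Lgals3, Cd9, Fabp5, Lpl and Apoe. They were matched by name, through the RefSeq accession of each array probe. All 9 had a probe (10 probes, 2 of them for Lpl) and all 9 passed the filter on dim probes, among 22925 features tested. RNA came from 4 heart samples of male mice. The hearts had been infarcted by tying off the left anterior descending coronary artery and were taken 5 days later. The 2 WT samples (WT replicates 1 and 3) are from wild-type mice, and the 2 KO samples (KO replicates 3 and 4) are from VE-Cad-Cre-S1pr1 fl/fl mice. In these a Cre recombinase under the VE-cadherin promoter, active in endothelial cells, is meant to delete the floxed gene for S1pr1, a receptor for sphingosine 1-phosphate. Whether S1pr1 was also deleted in other cells, macrophages included, was not tested. Strain, age and the alleles carried by the WT mice are not given in the sources used here, nor whether every array holds a different heart, so p-values cover the spread among these 4 samples alone and part of it could be technical. All groups carry the infarction, and no uninjured heart was analysed here. Each sample was hybridised to its own 1-colour Agilent array, and their number limits how precise any value can be.

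Trem2 is a surface receptor of macrophages that binds lipids and lipoproteins and signals through the adaptor protein Tyrobp, also called DAP12. Macrophages that take up lipid-rich debris in fatty, injured or demyelinated tissue switch on a recurring set of genes downstream of or alongside Trem2, among them the glycoprotein Gpnmb, the secreted matrix protein Spp1 (osteopontin), the galectin Lgals3, the tetraspanin Cd9, the fatty acid carrier Fabp5, the lipase Lpl and the lipid carrier Apoe. In the infarcted heart such macrophages clear dying cardiomyocytes, and several of these genes are also used by other cells there: Lpl by cardiomyocytes and fat cells, Apoe and Cd9 by many cell types.

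The targeted gene was checked in every sample. Levels are log2 signals minus the 75th percentile of the same array, so a level of 0 is the upper quartile of that array's probes, and differences are KO minus WT on that log2 scale. S1pr1 was at 0.43 and 0.95 in WT replicates 1 and 3 and at -2.69 and -2.30 in KO replicates 3 and 4. Both KO arrays were below both WT arrays, as the labels would have it. Heart tissue was represented on every array: 14 of 14 ventricular cardiomyocyte markers were well above background on all 4, but their mean level was 2.23 on WT replicate 1 against 6.35 on WT replicate 3 and 6.14 and 6.95 on KO replicates 3 and 4. Macrophages were represented too, with 17 of 17 measured pan-macrophage markers well above background on all 4 arrays, at mean levels of 2.95, 1.99, 1.93 and 0.67 in the same order. WT replicate 1 also had the highest background (negative-control SD 6.79, against 1.17 to 1.68 on the others) and the smallest share of probes well above background, 54.3% against 69.4% to 73.4%. The 4 arrays lay on 1 slide, WT at positions 4 and 3 and KO at positions 2 and 1, so slide position and genotype cannot be told apart.

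No feature, and so none of the 9 genes, passed the test between genotypes (limma, adjusted p under 0.05 over 22925 features; 0 called, or 0% of features, smallest adjusted p 0.642). At an unadjusted p under 0.05 there were 633 features (2.76%; 1.35% with a lower mean in KO), and of the 9 genes 1, Lgals3, which was lower. The description below therefore gives values and their spread. Of the 9 genes, 8 had a lower mean in KO, where 45.2% of all features did, and the exception was Lpl. The mean was at least 2-fold lower in KO for 6 genes, against 7.51% of features. For 5 of the 9, Trem2, Gpnmb, Spp1, Lgals3 and Fabp5, both KO arrays were below both WT arrays, which was so for 16.1% of features. The opposite separation was seen for none of the 9 and for 18.3% of features, and the genotypes were separate in either direction for 34.4%. The mean was at least 2-fold higher in KO for 1 gene, Lpl, against 10.2% of features. The median difference of the 9 was -1.21, and the median of all features was 0.07. In RNA of heart tissue, fewer macrophages, less RNA per macrophage, an unlike mix of tissue and RNA of other cells cannot be told apart.

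**Figure D1:**
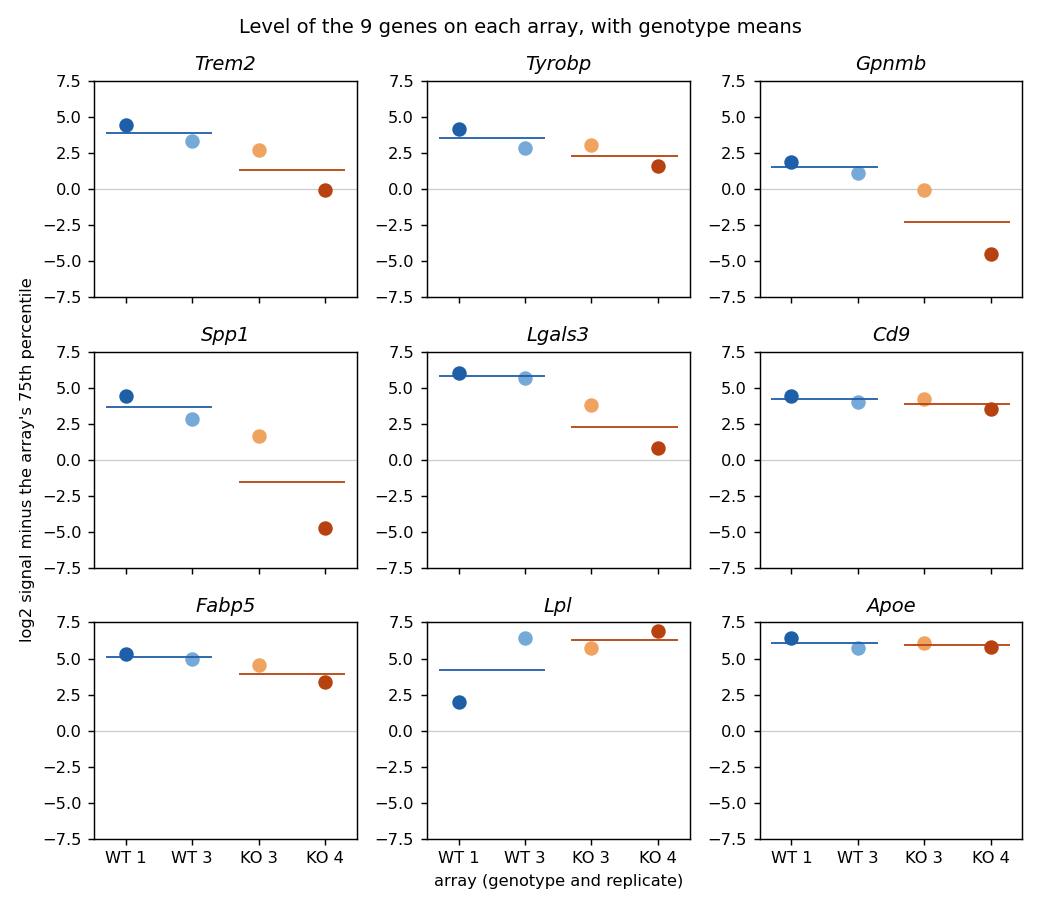
Level of each of the 9 genes on each array (log2 signal minus the array's 75th percentile), with points for arrays and lines for the mean of each genotype (n = 2 each). Spp1 spans the widest range, from 4.45 on WT replicate 1 to -4.69 on KO replicate 4, while Apoe stays between 5.76 and 6.46, and Lpl is low on WT replicate 1.

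Trem2, the lipid-sensing receptor, was at 4.45 and 3.33 on the WT arrays and at 2.73 and -0.05 on the KO arrays. The genotypes did not overlap, but KO replicate 3 was 0.60 below WT replicate 3 while KO replicate 4 was 2.78 below KO replicate 3. The mean difference was -2.55 (SE 1.06, 95% interval -5.39 to 0.30, unadjusted p = 0.0684 and adjusted p = 0.740 in limma), a 5.85-fold lower mean. An exact permutation test of 2 against 2 arrays gave p = 0.333 (two-sided), the smallest p that design allows. Left-out arrays changed the size: the difference was -1.16 when KO replicate 4 was omitted and -3.94 when KO replicate 3 was. Omitting WT replicate 1 or 3 gave -1.99 or -3.11.

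Tyrobp, the signalling partner of Trem2 and of other myeloid receptors, was at 4.21 and 2.85 in WT and at 3.04 and 1.59 in KO. WT replicate 3 lay below KO replicate 3, so the genotypes overlapped. Its difference was -1.21 (SE 0.74, 95% interval -3.19 to 0.77, adjusted p = 0.740 in limma), which shrank to -0.49 when KO replicate 4 was omitted and to -0.53 when WT replicate 1 was, and grew to -1.94 with KO replicate 3 or -1.89 with WT replicate 3 omitted. The receptor spanned a wider range over the 4 arrays (4.50) than its adaptor (2.61).

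The start of the Trem2 gene is shown because the receptor names the programme. Its range over the arrays (4.50) was the median of the 9 genes, where the median of all features was 0.98. The sequences are the 250 bases before a RefSeq transcription start, from the GRCm38.p6 table, 5′ to 3′ on the gene's strand. Those of Gpnmb and Spp1, which had the lowest differences of the 9, are given for comparison. Capitals mark matches to 4 motifs searched on both strands. These were TCACGTG and TCATGTG (bound by MITF, TFEB and TFE3) and GAGGAA (the core of the site of PU.1, a macrophage transcription factor). The last was TGANTCA, a loose form of the AP-1 site that allows any middle base. No matches overlap in the windows shown.

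Trem2, chr17:48346151-48346400, plus strand: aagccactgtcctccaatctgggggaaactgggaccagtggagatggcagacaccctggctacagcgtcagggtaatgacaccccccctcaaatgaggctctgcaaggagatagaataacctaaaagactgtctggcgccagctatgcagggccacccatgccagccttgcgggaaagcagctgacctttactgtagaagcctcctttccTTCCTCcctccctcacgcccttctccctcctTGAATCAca
Spp1, chr5:104434861-104435110, plus strand: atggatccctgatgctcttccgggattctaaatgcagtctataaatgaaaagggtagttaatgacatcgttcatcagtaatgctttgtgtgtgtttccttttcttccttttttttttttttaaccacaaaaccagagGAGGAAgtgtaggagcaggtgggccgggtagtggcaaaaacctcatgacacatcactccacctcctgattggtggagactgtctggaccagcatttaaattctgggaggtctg
Gpnmb, chr6:49036268-49036517, plus strand: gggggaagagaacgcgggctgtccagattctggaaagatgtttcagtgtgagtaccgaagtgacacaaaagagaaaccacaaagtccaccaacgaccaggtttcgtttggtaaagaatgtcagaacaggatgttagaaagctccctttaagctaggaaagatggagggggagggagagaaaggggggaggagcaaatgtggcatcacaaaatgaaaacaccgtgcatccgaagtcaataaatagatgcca

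The Trem2 window held 1 GAGGAA match, on the opposite strand and so printed as TTCCTC. That window also held 1 TGANTCA match, with A as its middle base, that begins 9 bases before the start. The Spp1 window held 1 GAGGAA match, which begins 113 bases before the start, and the Gpnmb window held none of the 4. GAGGAA was present in 23.3% and TGANTCA in 6.75% of 32851 such windows in the table, TCACGTG in 3.13% and TCATGTG in 3.25%. The table lists a further start for Spp1, whose window held none of the motifs. These matches are letters in a window and were not set against binding data. Of the other genes, Lgals3, Cd9 and Apoe also have entries. The Lgals3 and Cd9 windows held no match, and GAGGAA occurred in 2 of the 3 Apoe windows.

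Gpnmb, a membrane glycoprotein of lysosome-rich macrophages, was at 1.90 and 1.12 in WT and at -0.03 and -4.46 in KO. Both KO arrays were below both WT arrays, and the KO arrays were themselves far apart, with KO replicate 3 at 1.14 and KO replicate 4 at 5.58 below WT replicate 3. The level of -4.46 on KO replicate 4 was flagged well above background, but lies below the lowest such level on WT replicate 1 (-4.39). With a common floor of -4.39 under dim signals the KO minus WT difference was -3.72. The difference was -3.75 (SE 1.55, 95% interval -7.93 to 0.42, adjusted p = 0.740 in limma), which ranked 20 from the lowest among 22925 features. Omitting KO replicate 4 gave -1.54 and omitting KO replicate 3 gave -5.97.

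Spp1, the secreted phosphoprotein osteopontin, had the largest spread of the 9 genes. Its level was 4.45 and 2.84 in WT and 1.68 and -4.69 in KO. In scanner units its processed signal was 24237 and 6143 in WT and 3010 and 24.0 in KO. Every one of these signals was flagged well above background, that on KO replicate 4 included, although it lies below the lowest level well above background on WT replicate 1 (-4.39). The 4 arrays covered a range of 9.13, or 561-fold, which ranked 5 among all features, whose median range was 0.98. A range of 4 or more was found for 5 of the 9 genes and for 3.91% of features. The mean difference was -5.15 (SE 2.24, 95% interval -11.17 to 0.87, adjusted p = 0.740 in limma). Between replicates numbered 3 the KO array was 1.17 lower, and between the KO arrays the gap was 6.36. Without KO replicate 4 the difference was therefore -1.97, and without KO replicate 3 it was -8.33.

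Lgals3, the galectin-3 gene, a sugar-binding protein abundant in phagocytes, had the smallest unadjusted p of the 9. Its level was 6.0 and 5.70 in WT, 0.30 apart, and 3.80 and 0.79 in KO. The KO array nearest to WT was still 1.90 below the lower WT array, the widest such gap among the 9 genes. The difference was -3.55 (SE 1.07, 95% interval -6.42 to -0.68, unadjusted p = 0.0255 and adjusted p = 0.740 in limma). Omitting KO replicate 4 gave -2.05, omitting KO replicate 3 gave -5.06, and omitting a WT array gave -3.40 or -3.70.

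The genes for lipid handling did not move as a block. Fabp5, a cytosolic fatty acid-binding protein of macrophages and endothelium, was at 5.34 and 4.94 in WT and at 4.52 and 3.38 in KO. Its genotypes did not overlap, and its difference was -1.19 (SE 0.51, 95% interval -2.56 to 0.17, adjusted p = 0.740 in limma), with -0.62 without KO replicate 4.

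Apoe, the apolipoprotein that carries cholesterol out of macrophages, was at 6.46 and 5.76 in WT and at 6.06 and 5.81 in KO. WT replicate 1 was highest and WT replicate 3 lowest, so the KO arrays lay between them. The difference was -0.17 (SE 0.39, 95% interval -1.23 to 0.88, adjusted p = 0.874 in limma), its sign turned without WT replicate 1 (0.18), and it was -0.52 without WT replicate 3, -0.30 without KO replicate 3 and -0.05 without KO replicate 4. The interval leaves room for a change of up to 2.34-fold downward, so alike expression is not shown. The Apoe probe was printed many times on each array, and 8 to 10 of its spots were used. Their SD was 0.02 to 0.04 on the log2 scale, and the gap between the WT arrays was 0.70. Spots of 1 array share its RNA and scan, so this SD does not measure technical spread between arrays.

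Lpl, the lipase that releases fatty acids from lipoproteins, was the gene with a higher mean in KO. Its level was 1.99 on WT replicate 1 against 6.41 on WT replicate 3, and it was 5.71 and 6.90 in KO. The WT arrays were 4.42 apart and enclosed KO replicate 3. The difference of 2.10 (SE 1.58, 95% interval -2.14 to 6.34, adjusted p = 0.740 in limma) rested on WT replicate 1, without which it was -0.11. Without WT replicate 3 it was 4.31. A dimmer probe for Lpl gave the same order, at -0.13 and 4.69 in WT and 4.14 and 5.54 in KO.

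Cd9, a tetraspanin that organises proteins in the cell membrane, differed little between arrays. It was at 4.47 and 4.04 in WT and at 4.24 and 3.53 in KO, with KO replicate 3 between the WT arrays. The difference was -0.36 (SE 0.41, 95% interval -1.47 to 0.75, adjusted p = 0.770 in limma). It was -0.007 without KO replicate 4, -0.72 without KO replicate 3, -0.15 without WT replicate 1 and -0.58 without WT replicate 3.

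**Figure D2:**
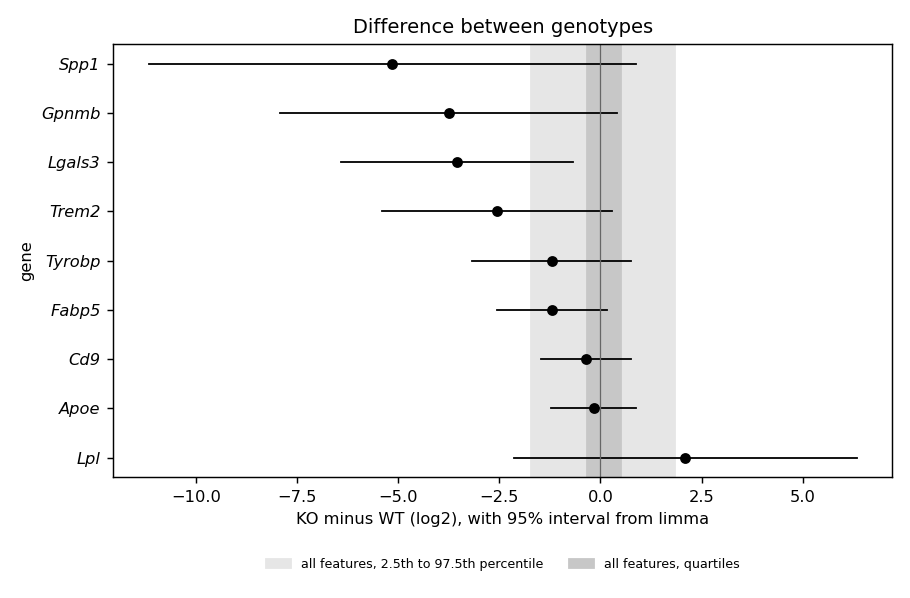
KO minus WT for each gene on the log2 scale (points) with the 95% interval from limma (lines), over the central range of all 22925 features (light band, -1.72 to 1.83) and their quartiles (dark band). Spp1, Gpnmb, Lgals3 and Trem2 lie left of the light band and Lpl lies right of it, and every interval except that of Lgals3 includes 0.

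Much of the spread lay between arrays of 1 genotype. KO replicate 4 was the lowest of the 4 arrays for 7 of the 9 genes (27.6% of all features), WT replicate 1 the highest for 8 (39.0%), and both held for 7 (23.5%). The full order WT replicate 1, WT replicate 3, KO replicate 3, KO replicate 4 from high to low was seen for 5 genes and for 10.6% of features. The gap between KO replicate 3 and WT replicate 3 varied with the gene. KO replicate 3 was 0.19 higher than WT replicate 3 in Tyrobp, 0.21 higher in Cd9 and 0.30 higher in Apoe, and 0.43 lower in Fabp5, 0.60 lower in Trem2 and 0.71 lower in Lpl. The gap was 1.14 for Gpnmb, 1.17 for Spp1 and 1.90 for Lgals3, all lower on KO replicate 3. Without KO replicate 4 the median difference of the 9 genes was -0.62, and without KO replicate 3 it was -1.94. Omitting WT replicate 1 or 3 gave a median of -0.99 or -1.89, and 8 of 9 genes were lower in KO in each of these 4 cases. The exception was Lpl, except without WT replicate 1, where it was Apoe.

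**Figure D3:**
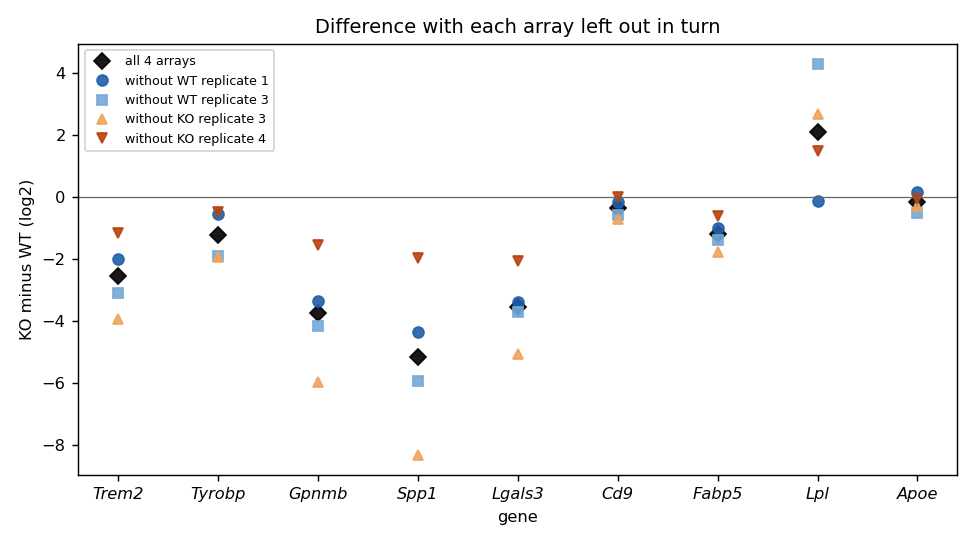
KO minus WT (log2) for each gene with all 4 arrays (black diamonds) and with each array left out in turn (coloured symbols). Without KO replicate 4 the Spp1 difference is -1.97 in place of -5.15, and without WT replicate 1 the Lpl difference is -0.11 in place of 2.10.

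Set against cell type markers, the 9 genes showed unlike patterns over the arrays. Likeness was measured as the root mean square distance between array levels, each centred on its own mean over the 4 arrays, and 0 is an identical pattern. It is a description over 4 arrays that share slide and scaling. Tyrobp and Fabp5 were nearest to the mean of the 17 pan-macrophage markers (distances 0.16 and 0.20). Trem2, Lgals3, Gpnmb and Spp1 were nearest to the mean of the 8 myofibroblast markers (0.47, 0.87, 0.99 and 1.95), with the pan-macrophage mean at 0.88, 1.36, 1.71 and 2.70. Lpl was nearest to the 14 ventricular cardiomyocyte markers (0.19), with the pan-macrophage mean at 2.65. Cd9 and Apoe varied little, nearest to the fibroblast (0.27) and mesothelial (0.21) means. The distance counts the size of the swings as well as their shape. A gene of wide range thus lies far from a list mean of narrow range. On KO replicate 4 the centred mean was -1.21 for the pan-macrophage and -2.71 for the myofibroblast markers. By this measure Tyrobp and Fabp5 were nearest to the macrophage list, and the other genes, Trem2, Spp1 and Gpnmb among them, to another list. For genes of wide range this does not show that the macrophage label fits less well.

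These markers moved between the arrays as follows, and their part in the differences of the 9 genes was not tested. The pan-macrophage markers were lower in KO for 17 of 17 genes (median difference -1.18), where 45.2% of all features were, and for 7 both KO arrays were below both WT arrays (16.1% of features). Leaving out KO replicate 4 gave a median of -0.38, and leaving out WT replicate 1 one of -0.48. The 3 of smallest p were the Fc receptor Fcgr1 (-2.82), Aif1 (-1.7) and Fcer1g (-1.28), and the brightest was the cathepsin Ctss (-1.74). The myofibroblast mean was 2.32 and 1.7 in WT and 1.91 and -1.63 in KO. Of these markers 7 of 8 had a lower mean in KO (45.2% of all features). For 3 both KO arrays were below both WT arrays (16.1% of features). Cthrc1 differed by -3.84 and Ltbp2 by -3.58. The brightest, Postn (-1.69), was at 5.89 and 6.09 in WT and at 6.13 and 2.48 in KO, so only KO replicate 4 was low. Of the myofibroblast markers 8 of 8 were well above background on 3 arrays and 7 of 8 on KO replicate 4. The other was Tnc, whose measured difference of -3.94 includes a level of -7.34 on KO replicate 4, not well above background and so only a bound. The median difference of the myofibroblast markers was -1.33, which became -0.28 without KO replicate 4 and -3.30 without KO replicate 3. Cardiomyocyte markers were higher in KO for 14 of 14 genes (12572 of 22925 features), and the genotypes overlapped in every one. Their median was 2.19, which became 0.18 with WT replicate 1 left out and 4.2 with WT replicate 3 left out.

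Adipocyte markers, which bear on Lpl, were at a mean of -0.06 and -5.25 on WT replicates 1 and 3 and of -3.25 and -5.22 on the KO arrays. They were thus highest on the array where Lpl was lowest. Melanocyte markers, another source of Gpnmb, had low means on all arrays, -5.22 to -3.55, and Tyrp1 did not pass the filter. Single markers were higher, up to -1.64 on WT replicate 3. Of the 4 measured, 2 were well above background on WT replicate 1, so the mean there is partly a bound. The part of such cells in the Gpnmb signal was not tested. Platelet markers, which bear on Cd9, were at -0.44 on WT replicate 1 and -2.93 to -2.35 on the others. Means of the neutrophil, Schwann cell, mesothelial, fibroblast and endothelial markers ranged over 2.0 or less between arrays, and the median difference of each was between -0.22 and 0.31 with all 4 arrays. With 1 array left out the neutrophil median ran from -1.49 (without WT replicate 3) to 0.54 (without WT replicate 1), the mesothelial median from -0.66 to 0.38 for the same arrays, and the other 3 medians lay between -0.28 and 0.45.

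**Figure D4:**
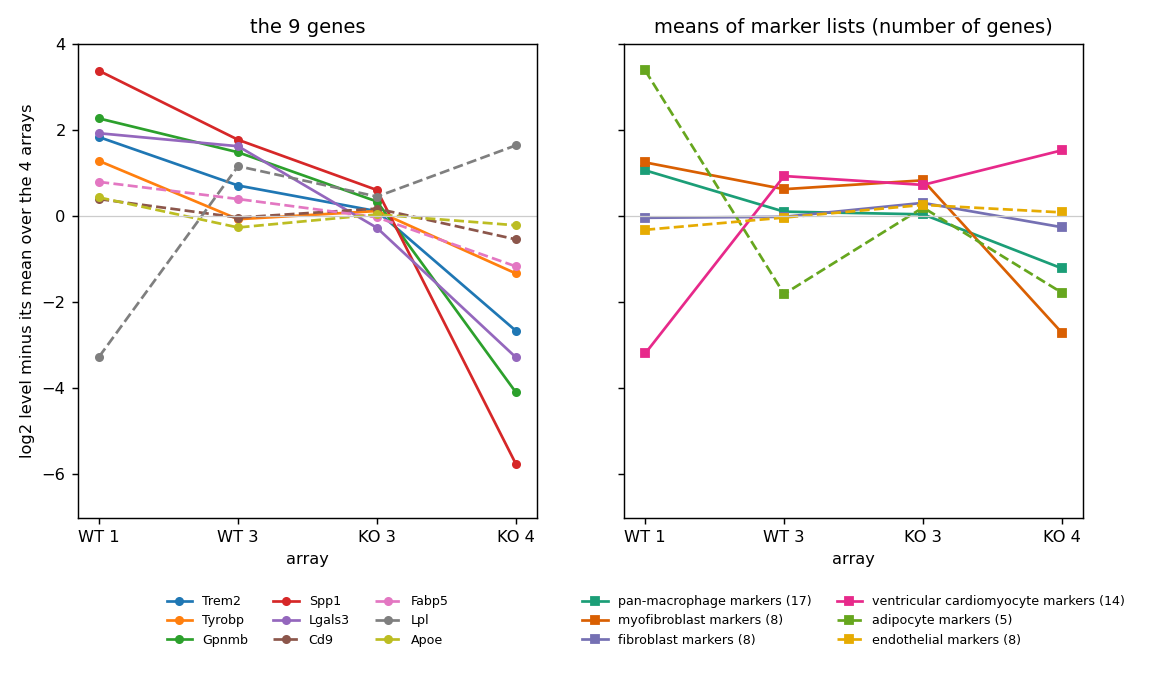
Left, log2 level of each of the 9 genes on the 4 arrays after subtracting its mean over the arrays; right, the mean of the same quantity over cell type markers, with the number of genes in brackets. Lines link the points of 1 gene or list and imply no order of the arrays; Lpl follows the cardiomyocyte markers, which are 3.19 below their mean on WT replicate 1, and Spp1 has the lowest point, on KO replicate 4.

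The genes were also set against macrophage markers on the same array. This subtracts 1 value per array from every gene, so all differences move by the same amount and the gaps between genes stay as they were. When the mean of the 17 pan-macrophage markers was subtracted from each array in place of its 75th percentile, the median of all features became 1.24, and differences are to be read against that. Tyrobp then differed by -0.042 and Fabp5 by -0.024. Spp1 (-3.98), Gpnmb (-2.58), Lgals3 (-2.38) and Trem2 (-1.38) were still lower in KO, with both KO arrays below both WT arrays in each. A lower mean in KO was found for 5.75% of all features on this scale. Cd9 (0.81) and Apoe (1.0) changed sign through the common shift, with both KO arrays above both WT arrays in each. Their differences lay below the median of all features, and Lpl differed by 3.27. How many of all features separate by genotype on this scale was not counted. None of the 9 passed the limma test on this scale either (adjusted p from 0.111 for Spp1 to 0.987 for Fabp5). For Trem2 the centred relative level was 0.77 and 0.61 in WT, 0.07 on KO replicate 3 and -1.45 on KO replicate 4. For Lgals3 it was 0.86 and 1.52 in WT, -0.31 on KO replicate 3 and -2.07 on KO replicate 4. KO replicate 4 was again the lowest array for both.

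**Figure D5:**
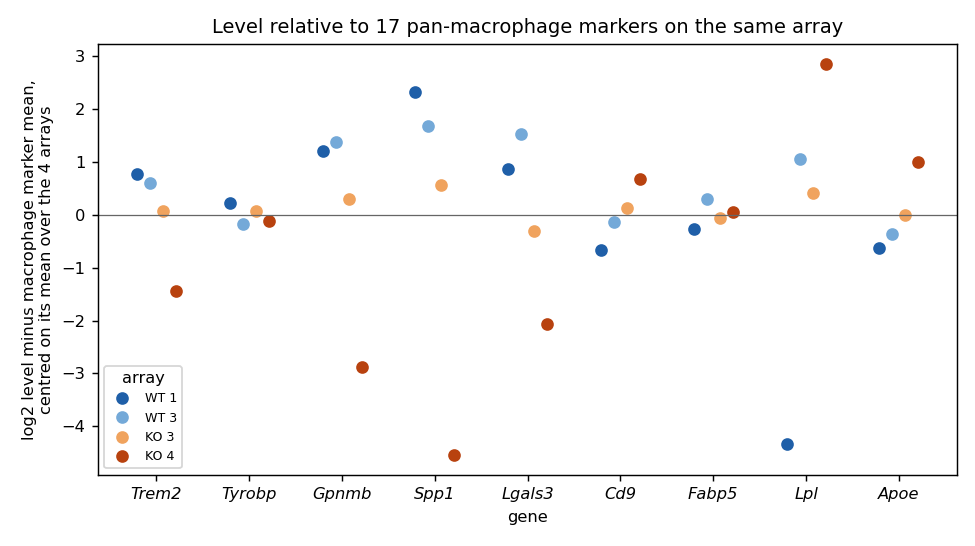
Level of each gene minus the mean of 17 pan-macrophage markers on the same array (log2), centred on its mean over the 4 arrays; each point is an array. Tyrobp and Fabp5 lie close to 0 on all arrays, while Spp1, Gpnmb, Lgals3 and Trem2 are lowest on KO replicate 4.

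The genes whose array pattern was most like Trem2, among 12910 named genes well above background on all arrays, were Cd300c2 (distance 0.11), Tedc1 (0.11) and Cdkn3 (0.12), where the median candidate was at 1.66. Cd300c2 encodes a myeloid surface receptor and Cdkn3 a cell cycle phosphatase. The nearest to Spp1 were the matrix genes Cthrc1 (0.72), Ltbp2 (0.86) and Col11a1 (0.92), with a median candidate at 3.47. Gpnmb was nearest to the mitotic genes Cdca3 (0.30) and Ccnb1 (0.36) and to Ltbp2 (0.39), with a median candidate at 2.47. Cthrc1 was at 4.0 and 2.65 in WT and 2.25 and -3.28 in KO, the step between the KO arrays that Spp1 also has. Among the 9 themselves the closest pair was Cd9 and Apoe (0.21), followed by Tyrobp and Fabp5 (0.35). Gpnmb and Lgals3 were 0.54 apart, Trem2 and Lgals3 0.59, and Spp1 and Lpl were the farthest at 4.98.

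Other genes of the TREM family and of Trem2 signalling were compared from a list of 17, of which 16 were measured. The list holds relatives of the receptor, the kinases and lipases that act below Tyrobp, and the proteases that cut Trem2 from the cell surface. None passed the test. A lower mean in KO was found for 15 of 16 (45.2% of all features), and for 7 both KO arrays were below both WT arrays (16.1% of features; median difference -1.04, which became -0.54 with KO replicate 4 omitted and -0.43 with WT replicate 1 omitted, and -1.68 with WT replicate 3 omitted). The 3 of smallest p were the receptor Treml2 (-3.08, SE 0.88), which was well above background on 3 arrays, the membrane protein Ms4a6d (-1.66, SE 0.51) and the exchange factor Vav1 (-1.89, SE 0.70). Treml2 was at -6.46 on KO replicate 4, where the lowest level well above background was -6.50, so its difference may be only a bound. Card9, an adaptor of fungal recognition, was the exception at 0.02, also with 3 arrays well above background. Ms4a6d was at 2.55 and 1.52 in WT and at 0.70 and 0.04 in KO.

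Of 25 measured further genes of lipid-laden macrophages, 20 had a lower mean in KO and none passed the test (median -0.90, which became -1.37 with KO replicate 3 omitted, -0.34 with KO replicate 4 omitted and -0.44 with WT replicate 1 omitted). For 15 of the 25 both KO arrays were below both WT arrays, against 16.1% of all features, of which 45.2% had a lower mean in KO. The integrin Itgax (-2.82, SE 0.97), the lipid droplet coat protein Plin2 (-1.47, SE 0.55) and the surface peptide Cd52 (-2.09, SE 0.84) had the smallest p. Plin2 was at 3.97 and 3.06 in WT and at 2.56 and 1.54 in KO, a full separation in the order of Trem2. The 5 with a higher mean in KO were Nr1h3 (0.31), Fabp4 (0.54), Syngr1 (0.78), Mitf (0.98) and the fatty acid transporter Cd36 (1.32). All 5 had the array order of Lpl, from KO replicate 4 at the top through WT replicate 3 and KO replicate 3 to WT replicate 1. Osteoclast-like genes, which share Spp1 and Gpnmb with these cells, were lower for 6 of 7 (45.2% of all features). For 1 of the 7 both KO arrays were below both WT arrays (16.1% of features). Acp5 was at -2.36 (SE 1.05), Mmp9 at -1.85 (SE 1.32) and Ctsk at -1.14 (SE 0.83). Their median was -0.82, which became -0.14 with KO replicate 4 omitted, -0.02 with WT replicate 1 omitted, -1.81 with KO replicate 3 omitted and -1.67 with WT replicate 3 omitted.

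Receptors of osteopontin and partners of galectin-3 were lower in KO for 9 of 12 measured genes (45.2% of all features). For 5 both KO arrays were below both WT arrays (16.1% of features), and for 2 they were above (18.3%). None passed the test, and the median was -0.99. It became -0.25 with KO replicate 4 omitted and -0.42 with WT replicate 1 omitted. The integrin Itga8, which binds osteopontin on fibroblast-like cells, had the smallest p of the list and differed the other way, by 1.27 (SE 0.34), at -2.12 and -1.66 in WT and -0.66 and -0.59 in KO. The syndecan Sdc4 differed by -1.02 (SE 0.44) and the galectin-binding protein Lgals3bp by -1.07 (SE 0.47). Itga9 (0.32) and Itgb6 (1.66, well above background on 3 arrays) were the others with a higher mean.

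Partners of Lpl and Apoe were split, 6 lower and 7 higher of 13 measured, with 0 past the test and a median of 0.03, which ran from -0.10 to 0.21 with 1 array left out. Their differences spanned from -3.35 for the receptor Lrp8, whose level of -8.72 on KO replicate 4 was not well above background, to 1.84 for the receptor Vldlr, and the genotypes overlapped in both. The lipoprotein receptor Lrp1 (-0.75, SE 0.43) did not overlap between genotypes and was lower in KO. Angptl4, a secreted inhibitor of Lpl, differed by -2.53 (SE 1.57) and overlapped, at 4.86 and 3.05 in WT and 3.52 and -0.66 in KO. Tetraspanins and partners of Cd9 were lower for 8 of 10 (45.2% of all features). For 3 both KO arrays were below both WT arrays (16.1% of features). Their median was -0.32. It was -0.095 without KO replicate 4, -0.075 without WT replicate 1, -0.66 without KO replicate 3 and -0.68 without WT replicate 3. In this list were Cd53 at -1.38 (SE 0.69), Tspan4 at -0.66 (SE 0.42) and Igsf8 at -0.90 (SE 0.58), and Cd151 (0.23) and Cd81 (0.26) had a higher mean. Of the other fatty acid-binding proteins 3 were measured. Fabp3, the heart form, differed by 2.11 (SE 1.36) with its low value on WT replicate 1 (3.22 against 6.94 to 7.58), and Fabp7 by -1.79 (SE 1.09). Both WT signals of Fabp2 lacked the flag for well above background, so no difference is given for it.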

How the data were processed

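Intensity was measured per spot with Agilent Feature Extraction (11.0.1.1 per the file headers, 9.1 per the submitters' processing notes). The processed signal was background-subtracted and detrended per the file headers, and spot flags are other values used as deposited. The authors deposited a table of log2 values normalized between arrays, by a method not given in the sources used here. Spots that were controls or flagged outliers were dropped, those of 1 probe were averaged as log2 values, and from these the array's 75th percentile was subtracted. Saturated spots numbered 0. Kept were probes with signal well above background on 2 or more of the 4 arrays, and the brightest probe stood for a gene. Names came from RefSeq accessions (27234 of 39429 probes, GRCm38.p6 table; the array grid names mm9, so coordinates printed are those of the RefSeq sequences). Replicate numbers follow the sample names (WT1, WT3, KO3, KO4), although every label ends in rep1.

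Genotypes were compared with lmFit and eBayes (limma 3.58.1, R 4.3.3) in a two-sided test, adjusted over all features after Benjamini and Hochberg. The fit was also run on simulated data with independent noise for each gene. Those data hold no swings shared by many genes, so they cannot show how such swings affect the p-values. The 9 genes and the lists were chosen with earlier results of these data known. Named are the 9 genes, S1pr1, the 3 genes of smallest p of each list described, the brightest marker of marker lists, and the 3 nearest patterns of Trem2, Spp1 and Gpnmb; list genes beyond these were named after their values were seen. Marker lists reported as ranges have no genes named. A gene that the rule would name among the partners of Lpl and Apoe is not reported here. Alternatives were other scalings (quantile, median, pan-macrophage markers), filters, the deposited values, normexp with an offset of 50, averaged probes, a trended robust eBayes, a common floor, an adjusted p under 0.10 and each array left out.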

Additional observations from a re-analysis of the deposited data

How the results depend on the processing

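No paired analysis was possible because the genotypes share 1 replicate number. Of the 15 alternatives, scaling to the pan-macrophage markers called 32 features and 1 gene of the fixed lists in place of 0, and gave the 9 genes a median difference of -0.042 with 6 of 9 lower; Cd9 (0.81) and Apoe (1.0) reversed. Without WT replicate 1, Lpl (-0.11) and Apoe (0.18) reversed. Leaving out 1 array moved several genes by more than that scaling did, and gave Spp1 from -8.33 to -1.97, Gpnmb from -5.97 to -1.54 and Lpl from -0.11 to 4.31. Apoe ran from -0.52 to 0.18 and the median of the 9 genes from -1.94 to -0.62, and both moved less than with that scaling. The other alternatives called 0 features and kept the sign of each of the 9 genes, with 8 of 9 lower. Median scaling moved the median of all features from 0.07 to -0.04, and the share with a lower mean in KO from 45.2% to 52.5%, as against 5.75% with the pan-macrophage scaling. Adjusted p over all alternatives ran from 0.276 to 1.0 for Trem2, 0.310 to 1.0 for Gpnmb, 0.111 to 1.0 for Spp1 and 0.257 to 1.0 for Lgals3 (limma). Signal over background limits dim levels most on WT replicate 1, where the lowest level well above background was -4.39; all 9 genes were above background on all 4 arrays.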
